A study of Mus musculus with 18 samples.

Results

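The 10 genes described here encode the machinery that displays peptides to T cells. They were chosen by symbol, and every array probe set that the platform annotation gives to a single one of these symbols was taken, 23 probe sets out of 34945 with 1 gene symbol. Of these, 19 were bright enough to be tested among 24364 tested probe sets: 12 of the 6 class II genes Cd74, H2-Aa, H2-Ab1, H2-Eb1, H2-DMa and Ciita, and 7 of the 4 class I genes B2m, Tap1, Tap2 and Tapbp. The 4 probe sets left out, 2 of Ciita and 2 of Tap1, were too dim. Either thymocytes or a tumour mass was taken from each of 18 mice, and total RNA was hybridised to Affymetrix mouse 430 arrays, 1 array per mouse. The groups were 8 CD4Cre-Ctnnbex3 mice with lymphoma, 5 CD4Cre-Ctnnbex3 mice whose T cells had not yet transformed, called before transformation, and 5 controls. The design text describes the controls as LckCre mice and the sample labels as wild type, so they are called controls here. In the CD4Cre-Ctnnbex3 genotype, shared by both other groups, Cre is driven by Cd4 regulatory sequences and acts on exon 3 of Ctnnb1, which stabilises beta-catenin. Ages, strains and the cell content of each specimen are not given in the labels, and the design text calls the mice independent. Tumour masses can come only from mice with lymphoma, so in both lymphoma comparisons the kind of specimen cannot be told apart from transformation.

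MHC class II molecules carry peptides from the endosomal pathway. In the mouse they are made mainly by B cells, dendritic cells, macrophages and thymic epithelium, while T cells themselves make little. The coactivator Ciita turns the class II genes on through a promoter module of X and Y boxes. MHC class I is made by nearly all nucleated cells: B2m is its light chain, Tap1 and Tap2 form the peptide transporter of the endoplasmic reticulum, and Tapbp (tapasin) holds the transporter to the empty class I molecule. In bulk RNA, fewer cells of a type and less RNA per cell cannot be told apart.

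The 250 bases upstream of the start site of 2 class II and 2 class I genes are shown because known control elements lie there. Members moved together from mouse to mouse between the classes as well as within each, so this movement singles out neither class. The sequences are from RefSeq, build GRCm38.p6, and run 5′ to 3′ along the strand of the gene. Capitals mark matches to 5 motifs searched on both strands: the Y box core GATTGG, the X box core AACNGATG, a core of the interferon-stimulated response element AAANTGAAA, the cyclic AMP response element TGACGTCA and the TCF/LEF core CTTTGAT.
H2-Aa, chr17:34287824-34288073, minus strand: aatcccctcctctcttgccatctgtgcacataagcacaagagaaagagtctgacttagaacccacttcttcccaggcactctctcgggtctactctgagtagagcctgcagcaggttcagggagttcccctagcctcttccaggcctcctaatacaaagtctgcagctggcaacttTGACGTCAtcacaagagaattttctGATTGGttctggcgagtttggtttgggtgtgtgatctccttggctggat
H2-Eb1, chr17:34305617-34305866, plus strand: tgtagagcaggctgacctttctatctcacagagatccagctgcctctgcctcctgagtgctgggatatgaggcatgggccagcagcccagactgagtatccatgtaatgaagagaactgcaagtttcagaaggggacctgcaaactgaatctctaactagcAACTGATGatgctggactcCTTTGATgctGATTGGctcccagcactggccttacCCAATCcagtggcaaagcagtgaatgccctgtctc
B2m, chr2:122147437-122147686, plus strand: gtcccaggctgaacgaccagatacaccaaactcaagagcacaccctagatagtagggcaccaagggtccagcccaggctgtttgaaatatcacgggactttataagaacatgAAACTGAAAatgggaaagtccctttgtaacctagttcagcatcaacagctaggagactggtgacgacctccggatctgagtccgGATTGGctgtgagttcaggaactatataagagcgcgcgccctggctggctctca
Tap1, chr17:34187306-34187555, plus strand: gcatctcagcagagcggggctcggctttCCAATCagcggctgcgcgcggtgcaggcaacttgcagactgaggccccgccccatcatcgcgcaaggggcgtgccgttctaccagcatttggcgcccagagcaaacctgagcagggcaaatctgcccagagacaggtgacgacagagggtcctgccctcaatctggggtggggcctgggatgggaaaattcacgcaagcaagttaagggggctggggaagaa
In H2-Aa the Y box core ended 44 bases before the start and a cyclic AMP response element ended 67 bases before it. In H2-Eb1 an X box core lay 89 to 82 bases before the start and a Y box core 60 to 55 bases before it, and a TCF/LEF core lay between them. A second match to the Y box core lay on the opposite strand in H2-Eb1. In B2m a core of the interferon-stimulated response element lay 138 to 130 bases before the start. No match overlapped another. Of 32851 mouse windows of this length, 14.6% held the Y box core, 1.98% the X box core, 2.27% the interferon-stimulated core, 1.55% the cyclic AMP element and 3.21% the TCF/LEF core. The Tap1 window is shared: 225 of its 250 bases are also upstream of Psmb9, an immunoproteasome subunit gene transcribed from the opposite strand. Windows were at hand for 6 of the 10 genes, and the Y box core occurred in 5 of their 7 windows. A match is a run of letters and no measurement of binding.

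Expression is given as the deposited probe-set signal, assumed to be a linear intensity. Differences are on the log2 scale, with the standard error (SE) of the fit, and a probe set is said to rise or fall where limma's Benjamini-Hochberg adjusted p over all 24364 tested probe sets is under 0.05. Probe sets differ in brightness, so signals of different genes are not set against each other. Names ending in _s_at or _x_at mark probe sets that can also pick up related transcripts. These include all 4 H2-Aa probe sets, the brightest and dimmest of H2-Ab1, the brighter of H2-DMa, and those given for H2-K1, H2-D1 and Cd1d1. Array medians lay between 125 and 166. Controls 1 and 2 resembled each other more closely than other controls did, as did controls 3 and 4. The SD of the log2 difference, over the brighter of the tested probe sets alone, was 0.168 for the first pair and 0.303 to 0.350 for pairs across. Xist signal exceeded that of the Y-linked Eif2s3y in 7 of 8 lymphomas, 0 of 5 mice before transformation and 2 of 5 controls. The part of sex in the results was not tested.

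**Figure D1:**
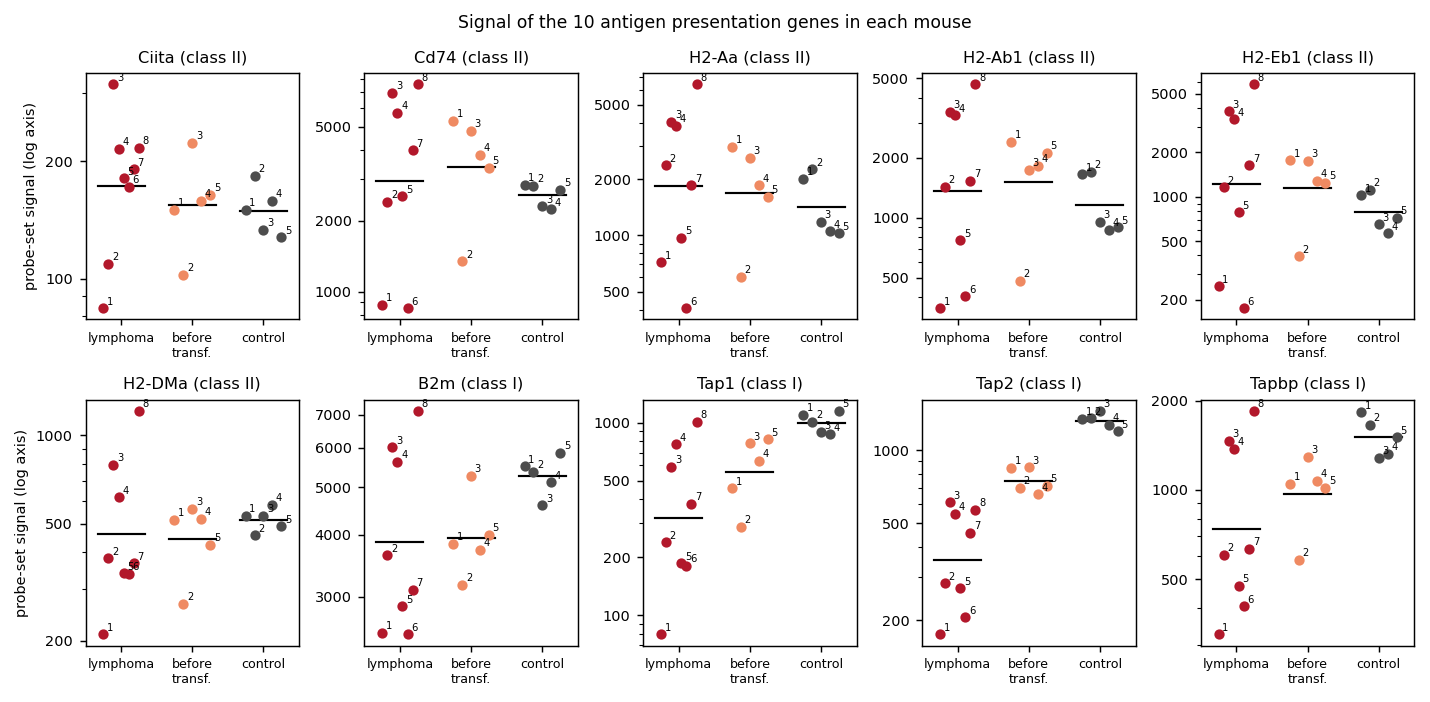
Signal of each of the 10 genes, by its brightest probe set, in every mouse; the vertical axis is logarithmic, dots are mice with their number and the bar is the geometric mean of the group. Tap2 lies in 3 separate bands, from 174 to 610.5 in lymphomas, 657 to 849 before transformation and 1196 to 1454 in controls, while class II signals of the lymphomas spread above and below both other groups.

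Tap2, one subunit of the peptide transporter, fell at both steps. Its signal was lowest at 174, with a median of 371 and a highest value of 610.5, in the 8 lymphomas. It was 845, 699.9, 849, 657 and 714 in the 5 mice before transformation, and 1347, 1353, 1454, 1274 and 1196 in the 5 controls. No lymphoma reached the lowest mouse before transformation, and no mouse before transformation reached the lowest control. Before transformation Tap2 fell by 0.82 ± 0.09 (SE) against controls, which is 1.76-fold lower (limma adjusted p = 0.000148, n = 5 each). In lymphomas it was 2.12-fold lower than before transformation (log2 difference -1.09 ± 0.29, limma adjusted p = 0.00978). Against controls the lymphomas were 3.75-fold lower (log2 difference -1.91 ± 0.29, limma adjusted p = 0.000116). These comparisons share groups, so the 3 differences are not independent. The call before transformation was lost when all 3 groups shared 1 estimate of the spread (limma adjusted p = 0.106).

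Tap1, the other transporter subunit, fell in lymphomas against controls by its brighter probe set. That probe set ranged from 79.5 through a median of 309.5 to 1008 in lymphomas. It read 457, 288, 781, 632 and 821 before transformation, and 1096, 1008, 889.8, 870.4 and 1154 in controls. All 5 mice before transformation and 7 of 8 lymphomas lay below the lowest control, and lymphoma 8 lay within the control range. The lymphomas were 3.11-fold lower than controls (log2 difference -1.64 ± 0.49, limma adjusted p = 0.0149). Before transformation the difference from controls was -0.84 ± 0.25, just short of the threshold (limma adjusted p = 0.0524). The difference of lymphomas from mice before transformation was -0.80 ± 0.52 (95% interval -1.91 to 0.32). The second tested Tap1 probe set was dim, at 38.2 to 115 in lymphomas and 65.8 to 122 in controls, and it did not repeat the fall (log2 difference -0.21 ± 0.23, limma adjusted p = 0.479).

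Tapbp, which encodes tapasin, fell in lymphomas against controls by 1 of its 2 probe sets. The brighter one ranged from 325 through a median of 619 to 1849 in lymphomas. It read 1047, 581, 1294, 1072 and 1014 before transformation, and 1827, 1654, 1283, 1325 and 1506 in controls. In 5 of 8 lymphomas it lay below every control, and lymphomas 3, 4 and 8 did not. The log2 difference was -1.03 ± 0.38 (2.04-fold lower, limma adjusted p = 0.0413), and -0.79 ± 0.42 by the other probe set (limma adjusted p = 0.143). The call was the least stable of the 3: it held in 11 of 27 alternative settings, against 25 of 27 for Tap1 and 27 of 27 for Tap2. Before transformation the brighter probe set differed from controls by -0.64 ± 0.19 (limma adjusted p = 0.0525).

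B2m, the class I light chain, fell slightly before transformation by 1 of its 2 probe sets. Its brighter probe set read 3842, 3173, 5267, 3728 and 4008 before transformation, against 5504, 5374, 4596, 5113 and 5872 in controls. In 4 of the 5 mice it was below every control, and mouse 3 was within the control range. The difference was -0.42 ± 0.12 (1.34-fold lower, limma adjusted p = 0.0439), and it passed the threshold in 9 of 24 alternative settings. The second probe set did not pass (-0.38 ± 0.18, limma adjusted p = 0.241), and passed in 3 of 23 alternative settings. In lymphomas B2m ran from 2516 through a median of 3368 to 7137, both below and above all controls, and the difference from controls was -0.45 ± 0.24 (limma adjusted p = 0.153).

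Taken by class, 2 of the 7 class I probe sets fell and none rose before transformation, against a background in which 6.73% of all tested probe sets were called lower and 4.77% higher. In lymphomas against mice before transformation 1 of 7 fell, where 20.2% of all tested probe sets were called lower and 16.0% higher. In lymphomas against controls 3 of 7 fell, where 23.9% were called lower and 16.9% higher. The median log2 difference over the 4 genes, by the brightest probe set, was -0.73, -0.59 and -1.33 in these comparisons. Over all 7 class I probe sets it was -0.64, -0.12 and -0.79, and over all tested probe sets -0.02, -0.04 and -0.05. Groups did not overlap for Tap1 and Tap2 before transformation (lower in 6.34% of all tested probe sets), for Tap2 between lymphomas and mice before transformation (9.96%) and for Tap2 between lymphomas and controls (12.6%). A further setting, chosen after the data were seen, left out mice with a Cd79a signal above 600 (lymphomas 3 and 4 and mouse 3 before transformation). The number of class I probe sets lower than controls was then 5 before transformation and 6 in lymphomas. Of all 24364 tested probe sets 1742 and 5063 were then called lower. The mice left out were among the highest 3 of their group for all 7 class I probe sets. Their removal by itself tends to lower the group means, so these counts say nothing of B cells. With controls 1 and 2 averaged to 1 sample, and 3 and 4 likewise, 1 member fell in each comparison with controls.

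**Figure D2:**
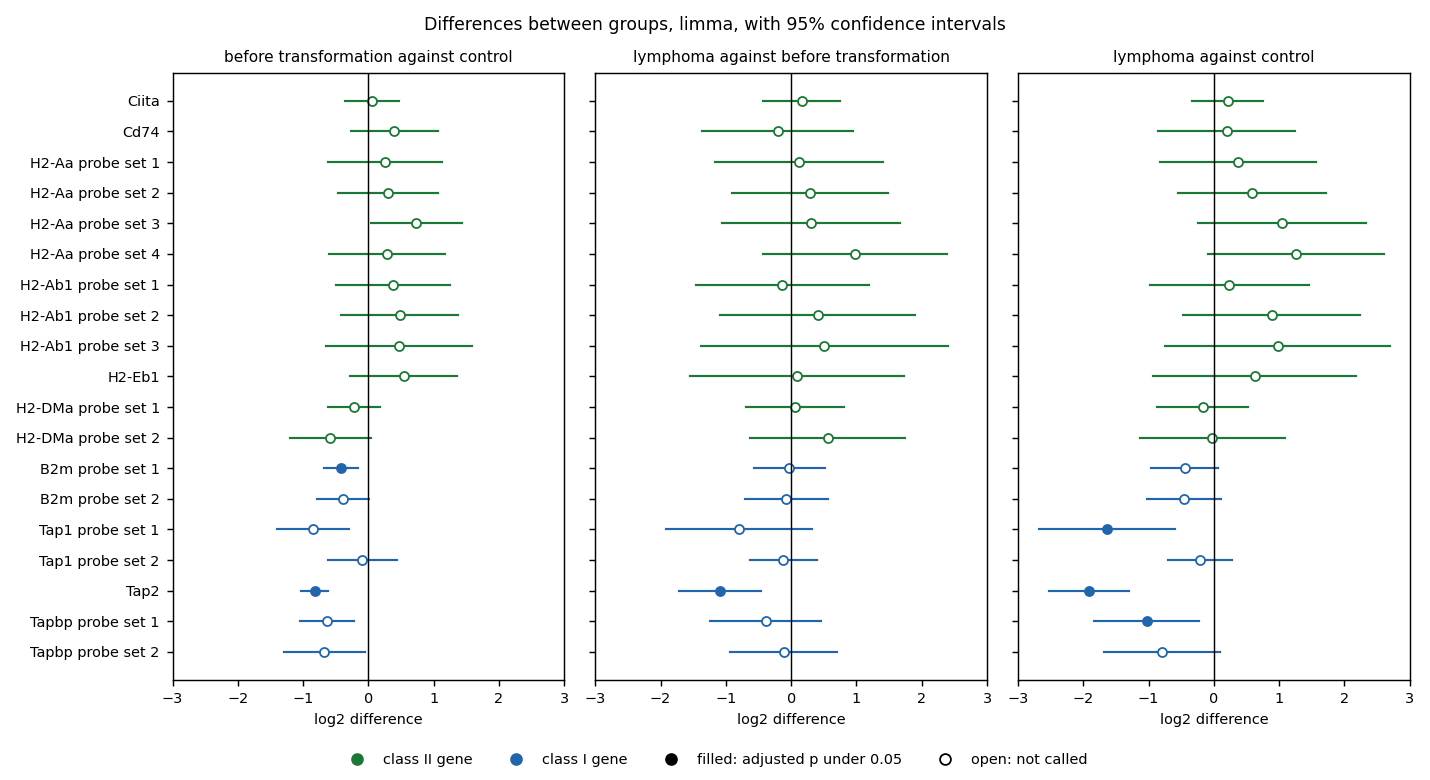
Log2 difference of each of the 19 tested probe sets in the 3 comparisons; lines are 95% confidence intervals of limma, green marks class II and blue class I, and filled points passed the threshold. All 6 filled points are class I genes to the left of 0, and the class II intervals of both lymphoma comparisons are wide.

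None of the 12 class II probe sets rose or fell in any of the 3 comparisons, where 11.5%, 36.2% and 40.9% of all tested probe sets were called before transformation against controls, in lymphomas against mice before transformation and in lymphomas against controls. Before transformation 1 class II probe set, of H2-Aa, had an unadjusted limma p under 0.05, and in either lymphoma comparison 0 had. The spread among mice of a group was wide. The median SD of the log2 signal over the 12 class II probe sets was 1.40 in lymphomas, 0.83 before transformation and 0.38 in controls, while over all tested probe sets it was 0.31, 0.24 and 0.20. For the 7 class I probe sets it was 0.71, 0.43 and 0.18. These SDs are given as a description.

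Cd74 encodes the invariant chain, which chaperones new class II molecules and blocks their groove. Its signal was 879.5, 2405, 6966, 5738, 2536, 851, 3983 and 7575 in lymphomas 1 to 8. It was 5319, 1347, 4808, 3812 and 3352 in mice 1 to 5 before transformation, and 2842, 2808, 2305, 2237 and 2701 in controls. The lymphomas differed among themselves 8.90-fold, with 4 above and 2 below all controls. Before transformation 4 of 5 mice were above all controls and mouse 2 was below them. The log2 difference was 0.40 ± 0.30 before transformation against controls (limma adjusted p = 0.522) and 0.19 ± 0.49 in lymphomas against controls (95% interval -0.85 to 1.24).

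H2-Aa and H2-Ab1 encode the alpha and beta chains of the I-A molecule. The brightest H2-Aa probe set ran from 408 through a median of 2112 to 6413 in lymphomas. It read 2973, 601, 2588, 1853 and 1604 before transformation, and 2007, 2253, 1178, 1051 and 1024 in controls. The lymphomas spanned both other groups, 15.7-fold from lowest to highest. The 4 H2-Aa probe sets gave log2 differences of 0.37 to 1.26 in lymphomas against controls, the dimmest the largest, and all intervals included 0. The brightest H2-Ab1 probe set ran from 353 through 1484 to 4654 in lymphomas. It read 2409, 484, 1742, 1824 and 2111 before transformation, and 1653, 1705, 958, 871 and 897 in controls. The same 4 mice before transformation that were high for Cd74 were above all controls for H2-Ab1, and mouse 2 was again below them. The difference before transformation was 0.38 ± 0.40 (95% interval -0.49 to 1.25).

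H2-Eb1, the beta chain of the I-E molecule, varied 33-fold among lymphomas, the widest range when each of the 10 genes is taken by its brightest probe set. Its signal ran from 175 through a median of 1402 to 5793 in lymphomas. It read 1770.4, 396, 1750.1, 1285 and 1249 before transformation, and 1023, 1114, 652, 567 and 724 in controls. In 5 lymphomas it was above all controls and in 2 below them. The log2 difference from controls was 0.54 ± 0.37 before transformation (limma adjusted p = 0.465) and 0.63 ± 0.73 in lymphomas (limma adjusted p = 0.520).

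H2-DMa, part of the H2-M molecule that loads peptides onto class II, and Ciita gave no call in any comparison either. The brighter H2-DMa probe set ran from 210.0 through 374 to 1213 in lymphomas. It read 516, 267, 563, 520.3 and 424 before transformation, and 532, 458, 531, 581 and 490.0 in controls. In 5 lymphomas it lay below all controls and in lymphomas 3, 4 and 8 above them. Ciita ran from 83.9 through 186 to 315 in lymphomas. It read 150.0, 102, 224, 159 and 164 before transformation, and 150.2, 183, 133, 158 and 128 in controls. The groups overlapped, with log2 differences from controls of 0.05 ± 0.19 before transformation and 0.21 ± 0.26 in lymphomas. The 2 other Ciita probe sets were near the floor.

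Class II calls before transformation appeared when a single animal was left out, mouse 2 of the group. It was lowest of its group for 11 of 12 class II probe sets, so its removal by itself tends to raise the group means. Without mouse 2 of that group, 5 class II probe sets were higher than in controls, as were 1187 of all 24364 tested probe sets. Cd74 then rose by 0.73 (limma adjusted p = 0.0059), H2-Eb1 by 0.92 (limma adjusted p = 0.0151), and the 3 H2-Ab1 probe sets by 0.79, 0.93 and 1.01 (limma adjusted p of 0.0424, 0.00322 and 0.0269). Tap1 (-0.60, limma adjusted p = 0.04) and Tapbp (-0.45, limma adjusted p = 0.0331) were then called lower, and the B2m call was lost (limma adjusted p = 0.0713). With mice numbered 3 and up alone, 7 class II probe sets were higher, as were 1019 of all 24364 tested probe sets. That setting also leaves out mouse 1 before transformation and controls 1 and 2. With mice numbered 1 and 2 alone, which leaves 2 mice per group with mouse 2 among them, 0 class II probe sets were called. Of the 12 differences 11 were then below 0, among them the brightest probe sets of H2-Aa at -0.67 and of H2-Ab1 at -0.64 (limma adjusted p of 0.643 and 0.661). In lymphomas, leaving out lymphoma 6 made 2 H2-Aa probe sets higher than controls, and leaving out lymphoma 1 made 1 so. Of all 24364 tested probe sets 4191 and 4501 were then called higher, so 2 and 1 of 12 are not above that share. The labels name no reason to drop any of these mice.

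The members moved together from mouse to mouse. Lymphomas 3, 4 and 8 were the highest 3 of their group for all 12 class II and all 7 class I probe sets, with lymphoma 8 highest in 11 and 5 of them. Lymphomas 1 and 6 were each lowest for 6 class II probe sets, and lymphoma 1 was lowest for 5 of 7 class I probe sets. Mouse 2 before transformation was lowest of its group for 11 of 12 class II and 5 of 7 class I probe sets. Deviations from the group means, over 18 mice on shared arrays, correlated at r of 0.82 to 0.98 between the 5 class II genes other than Ciita. The values were 0.83 to 0.96 within class I, 0.81 to 0.94 between the classes and 0.59 to 0.74 for Ciita with the other class II genes. These correlations are a description and carry no test.

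The genes outside the set whose deviations were most like those of Cd74 over the 18 mice were Dnase1l3 (r of 0.957), the classical class I heavy chains H2-D1 and H2-K1 (0.923 each), N4bp2l1 (0.922) and Plxnc1 (0.909). Dnase1l3 encodes a secreted nuclease of dendritic cells and macrophages. Most like B2m were Cybb (0.968), Lgals3bp (0.952), Ctsc (0.950), St8sia6 (0.946) and Gbp3 (0.944). Cybb encodes a subunit of the phagocyte oxidase, and Ctsc a lysosomal protease.

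Markers of the cells that normally carry class II also differed among mice. The summed signal of 17 B-cell genes was 4821 to 23076 in lymphomas, 3320 to 8569 before transformation and 6928 to 8472 in controls. Before transformation 4 of 5 mice were below all controls. Among lymphomas the sum was highest in 3 and 4, at 23076 and 13015, and lowest in 1 and 7, at 4821 and 8130, with lymphoma 6 at 9212. Without Ighm and Pou2af1, left out after the data were seen, the sum was 2444 to 10307 in lymphomas, 2726 to 5569 before transformation and 3093 to 3492 in controls. Over these 15 genes lymphomas 1 and 6 were the lowest, at 2444 and 2825, and 2 of 5 mice before transformation were below all controls. The summed signal of 21 dendritic-cell and macrophage genes was 9746 to 32518 in lymphomas, 5278 to 9472 before transformation and 5073 to 8128 in controls. Its highest value was in lymphoma 8, where Itgax (CD11c, named after its values were seen) read 1005, against 73.2 to 399 in the other lymphomas. Mouse 2 before transformation had the lowest sum of its group for the 17 B-cell genes, 3320, for the dendritic-cell and macrophage genes, 5278, and also for 16 thymic epithelial genes, 3338. The next lowest sums of that group were 3742, 7844 and 3932. For the dendritic-cell and macrophage genes and the thymic epithelial genes (3000 to 4840 in controls) mouse 2 was within the control range. The part of these cells in the class I and class II values was not tested.

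By test, against 16.9% of all tested probe sets called higher and 23.9% lower, 10 of 18 dendritic-cell and macrophage genes rose and 1 (Csf1r, named after its values were seen) fell in lymphomas against controls, with Itgam at 4.08, Lyz2 at 2.39, Fcgr3 at 2.37 and Cd68 at 2.33. Of 15 B-cell genes 3 rose, a share near that of all tested probe sets, namely Pou2af1 at 4.54, Blnk at 0.83 and Cd72 at 0.49 (-0.12 with mice numbered 1 and 2 alone), and Bank1 did not pass (-0.01, limma adjusted p = 0.972). Of 15 thymic epithelial genes 6 fell, among them Prss16 at -2.15 and Foxn1 at -0.78. Of 14 thymocyte and T-cell genes 12 fell, among them Cd3e at -1.60 and Cd247 at -2.10. The summed T-cell signal was 25001 to 39688 in lymphomas, 53242 to 77672 before transformation and 63442 to 69309 in controls. Before transformation, where 4.77% of all tested probe sets were called higher and 6.73% lower, these lists gave 1 rise of 18 (Itgam at 3.73), 1 rise and 1 fall of 15, 1 rise and 1 fall of 15, and 3 rises and 5 falls of 14. Of 4 plasma-cell genes 1 rose before transformation (Xbp1 at 0.65). In lymphomas against controls 1 rose (Sdc1 at 3.31) and 1 fell (Xbp1 at -0.60). The part of the kind of specimen, tumour mass or thymocytes, in the lymphoma differences was not tested.

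**Figure D3:**
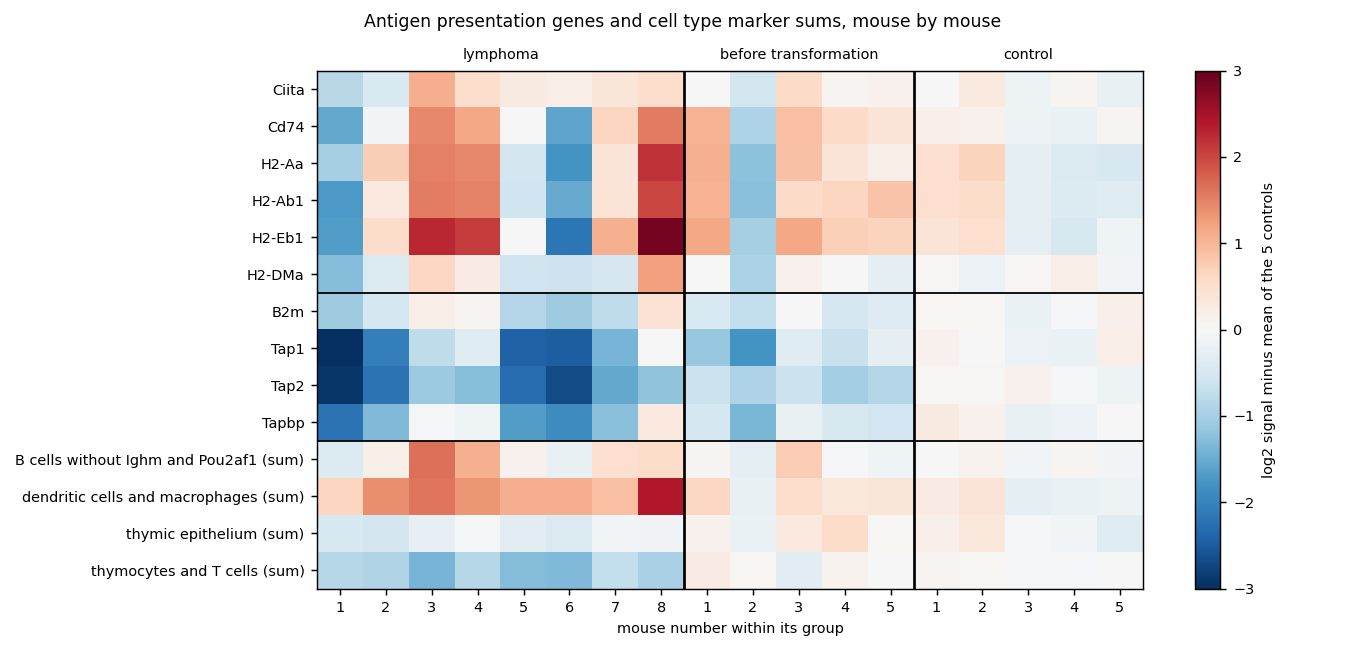
Log2 signal of the 10 genes and of 4 summed marker lists in each mouse, minus the mean of the 5 controls; columns are mice and thick lines part the groups. Lymphomas 3, 4 and 8 are red to pale red for class II and pale for B2m and Tapbp, lymphomas 1 and 6 are blue for every gene except Ciita in lymphoma 6, and the T-cell sum is blue in all 8 lymphomas.

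Of 11 tested genes for peptide supply and loading to class I, 4 fell and 0 rose before transformation by limma, where 6.73% of all tested probe sets were called lower and 4.77% higher. The immunoproteasome subunits Psmb8 and Psmb9 differed by -0.71 ± 0.14 and -0.69 ± 0.18, the proteasome activator Psme1 by -0.41 ± 0.09 and the trimming peptidase Erap1 by -0.59 ± 0.14. In lymphomas against controls 5 fell and 2 rose, where 23.9% of all tested probe sets were called lower and 16.9% higher, so the 2 rises are near that share. Psmb9, whose promoter window overlaps that of Tap1, read 138, 362, 652, 547, 256, 155, 292 and 595 in lymphomas 1 to 8. It read 529, 644, 944, 480.4 and 503 before transformation, and 1108, 1085, 790.4, 905 and 997 in controls. All lymphomas lay below all controls, as for 12.6% of all tested probe sets (log2 difference -1.58 ± 0.35, limma adjusted p = 0.00223). Psmb8 (-1.33 ± 0.24), Psmb10 (-0.52 ± 0.14) and the peptidase Npepps (-0.57 ± 0.11) also fell, while the chaperones Pdia3 (1.01 ± 0.24) and Canx (0.53 ± 0.14) rose. In lymphomas against mice before transformation 3 rose (Pdia3, Canx and Erap1) and 0 fell, where 16% of all tested probe sets were called higher and 20.2% lower. Tapbpl did not pass before transformation (0.03, limma adjusted p = 0.92).

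Of 7 tested class I heavy chain genes 1 rose before transformation, H2-Bl (1.13 ± 0.16), and 1 fell in lymphomas against controls, the class I-like gene Mr1 (-1.18 ± 0.33). In lymphomas against mice before transformation H2-Bl (-1.06 ± 0.20) and Mr1 (-1.35 ± 0.34) fell. Of all tested probe sets 4.77% were called higher before transformation against controls, 23.9% lower in lymphomas against controls and 20.2% lower in lymphomas against mice before transformation, so counts of 1 or 2 of 7 say nothing particular of this list. H2-K1, a classical heavy chain, read 824, 2055, 3911, 4169, 2179, 1466, 2462 and 4954 in lymphomas 1 to 8. It read 3121, 1825, 3651, 3968 and 3966 before transformation, and 3136, 3177, 2779, 3132 and 3334 in controls. The lymphomas lay on both sides of the controls, and before transformation the difference was 0.04 (limma adjusted p = 0.951). H2-Q2, named after its values were seen, read 4826, 201, 3384, 5381 and 5528 before transformation and 543 to 788 in controls, so that 4 mice were above and mouse 2 below all controls (1.95 ± 0.77, limma adjusted p = 0.151). H2 genes vary in sequence between mouse strains, which bears on any probe set of this family.

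Of 12 tested genes for class II partners and endosomal processing, 5 rose and 2 fell in lymphomas against controls, where 16.9% of all tested probe sets were called higher and 23.9% lower. The lysosomal proteases Ctsb (1.77 ± 0.14) and Lgmn (1.69 ± 0.30) and the thiol reductase Ifi30 (1.85 ± 0.47) rose. Marchf8, a ubiquitin ligase that removes class II from the surface, rose by at least 2.03 on the log2 scale, since 4 of 5 controls were at the floor. H2-Ea, the alpha chain of I-E, fell by 1.69 ± 0.33 and Ctsl, a protease of thymic cortical epithelium, by 1.33 ± 0.45. Ctsl read 787 to 3424 in lymphomas and 7070, 6757, 1544, 1449 and 6486 in controls. Controls 3 and 4 thus lay within the range of the lymphomas. H2-Ea read 914, 424, 193, 261, 196, 201, 444 and 264 in lymphomas 1 to 8. It read 622, 392, 1170.4, 1328 and 931 before transformation, and 1120.0, 1384, 1038, 851 and 750.0 in controls. Before transformation Ctsb rose by 1.93 ± 0.16, Marchf8 rose by at least 0.66, and Ctsd fell by 0.65 ± 0.10. In lymphomas against mice before transformation Lgmn, Marchf8, Ifi30 and Ctss rose (2.08, 1.37, 2.17 and 2.13) and Ctsl and H2-Ea fell by 2.33 and 1.38. Of all tested probe sets 16% were called higher and 20.2% lower there, so the 2 falls are not above that share.

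Of the 2 CD1 genes, which present lipids, Cd1d1 fell at both steps, as Tap2 did. It read 221 to 368 in lymphomas, 564 to 736 before transformation and 1011 to 1080.3 in controls, with no overlap. Its differences were -0.72 ± 0.08 before transformation against controls, -1.21 ± 0.13 in lymphomas against mice before transformation and -1.93 ± 0.13 in lymphomas against controls (limma adjusted p of 0.000146, 1.68e-05 and 3.73e-08). Of all tested probe sets 6.73%, 20.2% and 23.9% were called lower in these comparisons. Lower without overlap were 6.34%, 9.96% and 12.6%. Cd1d2 rose before transformation (0.85 ± 0.13), where 4.77% of all tested probe sets were called higher. It was lower in lymphomas than before transformation (-1.18 ± 0.27).

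Among 18 regulators of MHC genes 4 fell and 0 rose before transformation, and 10 fell and 1 rose in lymphomas against controls. Of all tested probe sets 6.73% were called lower and 4.77% higher before transformation, and 23.9% lower and 16.9% higher in lymphomas against controls. Ifngr1, the ligand-binding chain of the interferon-gamma receptor, read 267 to 736 in lymphomas, 896 to 1100.0 before transformation and 1834 to 2610.2 in controls. The 3 groups did not overlap, with differences from controls of -1.23 ± 0.11 before transformation (limma adjusted p = 2.09e-05) and -2.53 ± 0.22 in lymphomas (limma adjusted p = 5.82e-07). Of all tested probe sets 6.34% were lower without overlap before transformation against controls. In lymphomas 9.96% were so against mice before transformation and 12.6% against controls. Ifngr2, Rfxap and Irf1 also fell before transformation, by 0.38, 0.46 and 0.44. In lymphomas against controls Nfyc, Irf2, Jak1 and Creb1 fell by 0.72, 1.01, 0.61 and 0.97, and Spi1, a myeloid and B-cell factor, rose by 0.85. In lymphomas against mice before transformation 7 fell and 2 rose, led by Ifngr1 at -1.30. Of all tested probe sets 20.2% were called lower and 16% higher there, so the 2 rises are not above that share. Nlrc5, the coactivator of class I genes and named after its values were seen, read 32.2 to 245 in lymphomas, 47.4 to 267 before transformation and 197 to 315 in controls. It fell in lymphomas against controls (-1.36 ± 0.39, limma adjusted p = 0.0127). Irf8 did not pass in that comparison (0.28, limma adjusted p = 0.632).

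**Figure D4:**
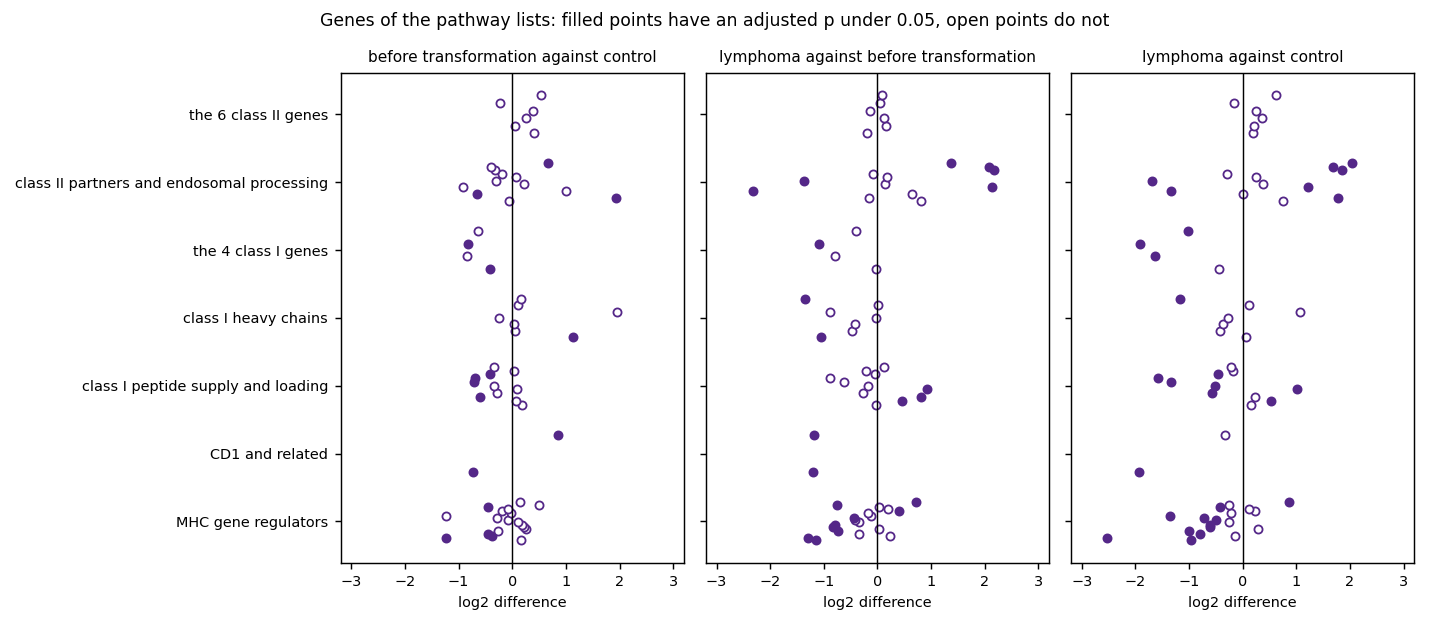
Log2 difference of every tested gene of 7 lists in the 3 comparisons, 1 point per gene by its brightest probe set; filled points passed the threshold. The 6 class II genes are open in all 3 panels, and the filled points of the 4 class I genes lie to the left of 0.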

How the data were processed

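The authors deposited an intensity value per probe set and array, from dChip, per the labels' design text. The values were assumed to be on a linear scale. No version, model or scaling for dChip was given in the sources used here. Signals cover 45101 probe sets, 64 of them array controls, with 1.20% of values blank. Values that were blank or under the 20th percentile were raised to it, an intensity of 53.5, before taking log2. Probe sets with 1 symbol in the platform annotation and a signal above 109, the 40th percentile, on at least 5 arrays were tested. Each comparison was fitted on its 2 groups with limma 3.58.1 in R 4.3.3, with an intensity trend and Benjamini-Hochberg adjustment, and the code was tested on simulated data. A list gene is its brightest probe set over the 18 mice.

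The members and lists were chosen with earlier results of these data known. Up to 6 called genes of a list, by adjusted p, and 1 uncalled gene were eligible to be named, and other genes are marked as chosen after their values were seen. Alternatives covered the floor, scaling, filter, probe-set choice, spread, blocks and omitted mice. The number of arrays limits the precision. List genes without a single-gene probe set were not analysed here.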

Additional observations from a re-analysis of the deposited data

Results flagged for a closer look

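In 3 of 57 sets of values tested (19 probe sets in 3 groups), a mouse lay far from the rest of its group by Dixon's test, and all 3 concern mouse 2 before transformation. Chance flags about 1 in 20 groups, and the 3 probe sets share their mice. The brightest H2-Ab1 probe set read 484 in that mouse, where the gap to the next mouse was 0.798 of the whole range of the group, both taken on the log2 scale. The second H2-Ab1 probe set read 134 there, with a gap of 0.789 of the range on the log2 scale. H2-Eb1 read 396 there, with a gap of 0.767 of the range on the log2 scale. The same mouse had the lowest B-cell, dendritic-cell and macrophage, and thymic epithelial marker sums of its group. For the latter 2 sums it was within the range of the controls. The part of these cells in its class II values was not tested.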

How the results depend on the processing

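Of 5059 recomputed values of named genes, 4752 stayed on their side of the threshold, 262 lost a call, 43 gained one and 2 lost a call and turned sign. Of the 4752, 216 also turned sign, all of them called neither as reported nor in the alternative. The 2 called values that turned sign did so with mice numbered 1 and 2 alone: H2-Ea in lymphomas against mice before transformation (0.33, limma adjusted p = 0.600) and Cd72 in lymphomas against controls (-0.12, limma adjusted p = 0.617). The causes were not tested.

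Before transformation against controls, the number of member probe sets called lower, 2 as reported, was 4 with the floor at the 10th percentile, 1 with it at the 40th, 4 with arrays centred on their medians, 1 without a filter, 0 with all 3 groups in 1 fit, 1 without an intensity trend, 1 with the replicate block, 4 with mice numbered 1 and 2 alone, 1 with those numbered 3 and up, 1 with control pairs averaged and 5 without mice above 600 in Cd79a. The last 2 settings were chosen after seeing the data. Leaving out 1 mouse at a time gave 1 to 5. The number called higher, 0 as reported, was 7 with mice numbered 3 and up alone and 0 to 5 with 1 mouse left out. All calls, 2801 as reported, were 1495 with 1 probe set per gene, 1593 with all 3 groups in 1 fit, 1592 with control pairs averaged and 2146 to 3020 with 1 mouse left out.

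In lymphomas against mice before transformation, all calls, 8825 as reported, were 4842 with 1 probe set per gene, 5448 with mice numbered 1 and 2 alone and 7054 to 9334 with 1 mouse left out. The 1 member called lower (Tap2) was lost with mice numbered 3 and up alone (0), and the count was 1 whichever mouse was left out. In lymphomas against controls, all calls, 9955 as reported, were 5633 with 1 probe set per gene and 8385 to 10663 with 1 mouse left out. Members called lower, 3 as reported, numbered 7 with mice numbered 1 and 2 alone, 1 with those numbered 3 and up, 1 with control pairs averaged, 6 without mice above 600 in Cd79a and 2 to 4 with 1 mouse left out. Members called higher, 0 as reported, numbered 1 with mice numbered 3 and up alone and 0 to 2 with 1 mouse left out.

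Higher against lower calls in lymphomas were 3902 to 4923 against mice before transformation, but 5417 to 4299 after quantile normalization and 4585 to 3821 after median centring. Against controls they were 4125 to 5830, but 5933 to 4784 and 5086 to 4491. Quantile normalization moved the median of all probe sets by 0.11 in lymphomas against controls, and Tap2 then stood at -1.76 and Tap1 at -1.48, both still called, while Tapbp was not (-0.88, limma adjusted p = 0.0715).

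Mouse numbers were not taken to pair the mice, which would need every correlation above 0.1. Deviations of same-numbered mice correlated at -0.07 to 0.37 between mice before transformation and controls, 0.08 to 0.39 between lymphomas and mice before transformation (4 of 5 above 0.1) and -0.11 to 0.25 between lymphomas and controls. Of 5 mice of each group, 2 or fewer correlated best with their own number in another group. The block gave 2800, 9263 and 8872 calls in the 3 comparisons. With the replicate block B2m before transformation (limma adjusted p = 0.0877) and Tapbp in lymphomas against controls (limma adjusted p = 0.0515) lost their calls, and Tap1 and Tap2 kept theirs. The deposited table has no detection calls, so signal over background is not known for dim probe sets such as those of Ciita.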
